A study of Mus musculus with 7 samples.

Results

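The genes described here are fibronectin, the thrombospondins and other matricellular proteins that work beside tenascin-C. They were listed by gene symbol as partners and neighbours of tenascin-C, by a rule that uses no measured value, though earlier results of these data were known when the list was made: Fn1, Sparc, Thbs1, Thbs2, Thbs3, Postn, Spp1, Ccn1 and Ccn2. Of these 9 genes, 8 had a probe set that carried their symbol alone, 1 probe set each, out of 19937 genes named in this way. No probe set was listed for Spp1, the osteopontin gene, so it is not analysed here. All 8 passed the filter on low signal, which kept 16801 genes.

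The series holds 7 Affymetrix arrays, each hybridised with total RNA of mouse embryonic fibroblasts that were left untreated and cultured for 2 days with fetal calf serum. The wild-type group had 3 clones from wild-type mice, the knockout group 2 clones from tenascin-C knock-out mice, and the knockdown group 2 clones from wild-type mice that stably carried a tenascin-C shRNA. Every clone, controls included, was spontaneously immortalised, a process that lets fibroblast lines drift apart. The sources used here give neither strain nor age, neither the deleted part of Tnc nor the promoter of the hairpin, and no group with a control hairpin is analysed here. The comparisons ask how transcript levels in fibroblasts without tenascin-C, or depleted of it, stand against those in wild type. The labels do not tie clones to separate animals, so a p-value here speaks only of the spread among the clones at hand.

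Matricellular proteins are secreted into the matrix but do not build its load-bearing fibres. They bind structural proteins, growth factors and cell surface receptors, and in fibroblasts they tune adhesion, spreading and matrix assembly. Fibronectin, in contrast, is assembled by integrins into fibrils on which much of the other matrix is laid down. Tenascin-C binds fibronectin and can interfere with the adhesion of cells to it.

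Values are log2 signals (a difference of 1 equals a factor of 2), and the median signal of an array was 5.38 to 5.49. Tnc checked the labels: it stood at 10.89, 11.42 and 11.38 in wild type, at 8.05 and 8.51 in knockout and at 7.34 and 6.52 in knockdown. It fell by 2.95 on the log2 scale in knockout (adjusted p = 0.042, limma), and in knockdown it fell by 4.30 (adjusted p = 0.0339, limma). Leaving out any single array ended both calls, though each such fit has fewer degrees of freedom. The Tnc difference then stayed within -3.172 to -2.720 in knockout and -4.701 to -3.890 in knockdown. Of 14 fibroblast markers, 12 lay above the array median on all 7 arrays, as did 8 of 38 markers of endothelial, blood, epithelial, skeletal muscle, bone and cartilage cells. The 8 were Vwf, Cd68, Krt8, Cldn4, Ckm, Alpl, Sox9 and Col2a1. Pecam1, Cdh5, Ptprc, Epcam, Myog and Sp7 were among those below the array median on all 7. Knockout array 2 alone had a high signal of the female-specific RNA Xist (8.80, against at most 3.77 elsewhere). The Y-linked gene Uty was at 3.14 there and at 4.98 on knockdown array 2, whereas all other arrays had 6.75 or more.

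Fibronectin, Sparc and Thbs3 had higher signals on all 4 arrays of the deficient groups, knockout and knockdown together, than on any wild-type array. Thbs1 was higher in knockout and lower in knockdown, Ccn1 was lower in knockdown, and Thbs2, Postn and Ccn2 varied widely between clones of the same group. In bulk RNA, fewer cells of a type and less RNA per cell cannot be told apart. None of these differences passed the test over all genes. Limma with Benjamini-Hochberg adjustment called 0 of 8 in knockout, where 0.167% of all genes were called, and 0 of 8 in knockdown, where 0.0179% were. It also called 0 of 8 in the mean of both deficient groups against wild type (0.0298% of all genes) and 0 of 8 between knockout and knockdown (0.375%). At an unadjusted p under 0.05 the knockout had 3 of the 8 higher (7.33% of all genes) and 0 lower (5.5%). The knockdown had 2 higher (7.12%) and 1 lower (6.99%), and the mean of both deficient groups had 4 higher (6.48%) and 0 lower (5.78%). Knockout and wild-type arrays did not overlap, with knockout higher, for 6 of the 8 (13.2% of all genes). In knockdown this held for 3 higher (17.5%) and 2 lower (12.9%), and over all 4 deficient arrays for 3 higher (4.15%). Differences were above 0 for 8 of 8 in knockout (42.6% of all genes), 5 of 8 in knockdown (56.8%), 6 of 8 over both deficient groups (50.1%) and 6 of 8 for knockout against knockdown (40%). The knockout and knockdown comparisons share the same wild-type arrays. Median log2 differences over the 8 genes were 0.53 in knockout and 0.51 in knockdown, against -0.03 and 0.03 over all genes tested. The knockdown median was 0.08 without wild-type array 1 and 0.28 with array weights.

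**Figure D1:**
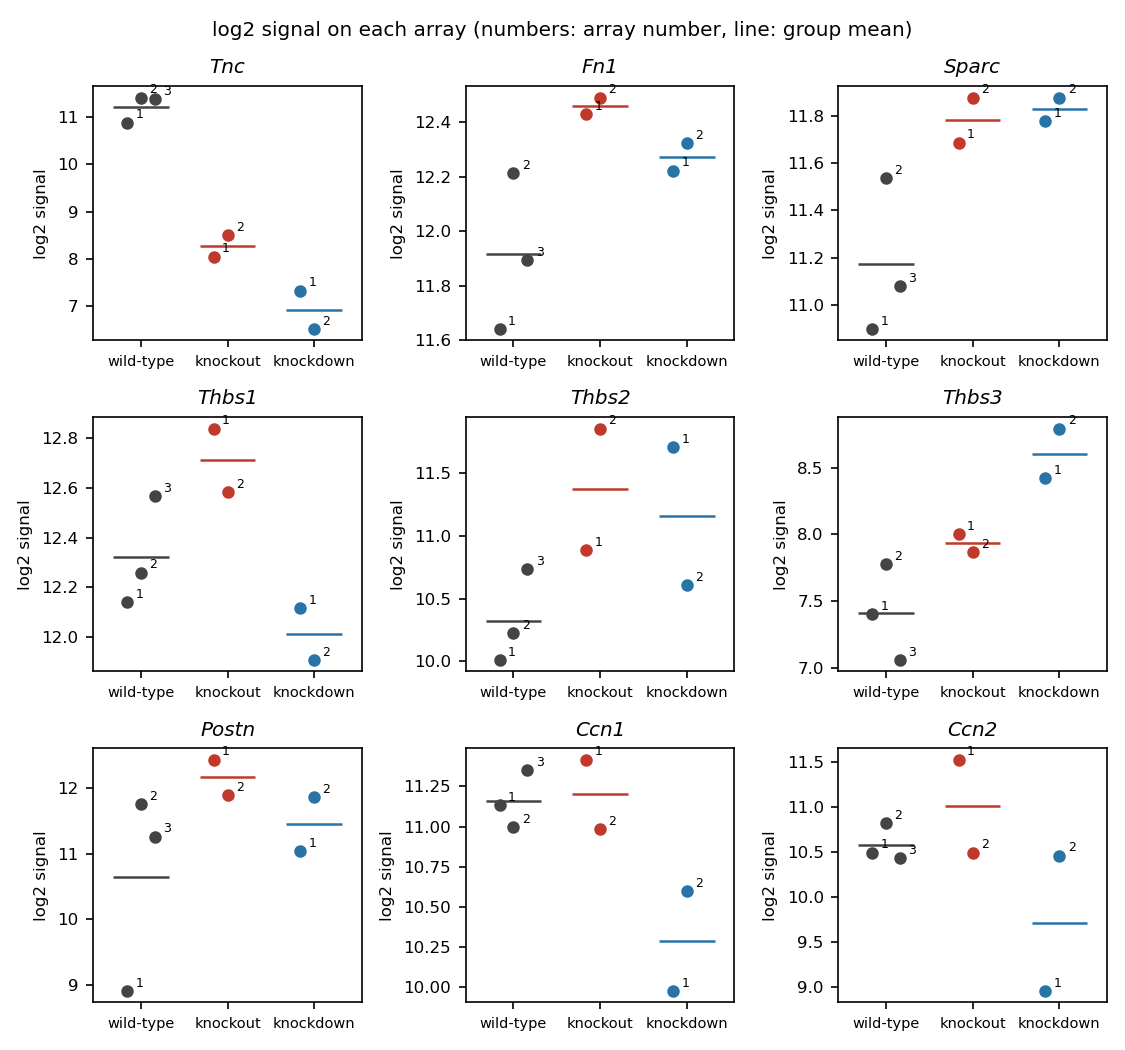
Log2 signal of Tnc and of the 8 genes on each of the 7 arrays, with the array number beside each point and a line at the group mean. Each panel has its own vertical axis. Fn1, Sparc and Thbs3 show both deficient groups above all 3 wild-type points, and Postn shows wild-type array 1 at 8.91, far below every other array.

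Fn1 encodes fibronectin, the adhesive glycoprotein that integrins assemble into fibrils and that tenascin-C binds (probe set 10355403, gene identifier 14268). Its log2 signal was 11.64, 12.21 and 11.89 in wild type, 12.43 and 12.49 in knockout and 12.22 and 12.32 in knockdown. All 4 deficient arrays were above wild type, but knockdown array 1 and wild-type array 2 were nearly level. After each array was centred on its median, the deficient arrays lay above wild type for Sparc and Thbs3 and no longer for Fn1. Wild type averaged 11.92 ± 0.285 (SD, n = 3), knockout 12.46 ± 0.0422 (SD, n = 2), and knockdown 12.27 ± 0.072 (SD, n = 2). Knockout lay 1.46-fold above wild type (log2 difference 0.54 ± 0.165 SE, limma adjusted p = 0.27), and knockdown 1.28-fold (0.36 ± 0.165 SE, limma adjusted p = 0.406). Between knockout and knockdown the log2 difference was 0.19, with a 95% interval from -0.25 to 0.63 (limma adjusted p = 0.592). The wild-type clones alone spanned 0.57, more than the knockout or the knockdown difference.

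Sparc encodes osteonectin, a collagen-binding matricellular protein that acts against cell spreading (probe set 10386058, gene identifier 20692). Its log2 signal was 10.90, 11.54 and 11.08 in wild type, 11.69 and 11.88 in knockout and 11.78 and 11.88 in knockdown. The 4 deficient arrays lay within a narrow band above wild type, while the wild-type clones spanned 0.64. The difference was 1.53-fold in knockout (log2 0.61 ± 0.191 SE, limma adjusted p = 0.289) and 1.58-fold in knockdown (log2 0.66 ± 0.191 SE, limma adjusted p = 0.233). Over both deficient groups it was 0.63, with an unadjusted p of 0.00737 and an adjusted p of 0.258 (limma). The groups lacking and depleted of tenascin-C differed from each other by -0.05 (95% interval -0.56 to 0.47), and this sign turned when arrays were centred on their medians (0.03). With any 1 array left out, the Sparc difference in knockout stayed within 0.47 to 0.79, and that in knockdown within 0.52 to 0.84.

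**Figure D2:**
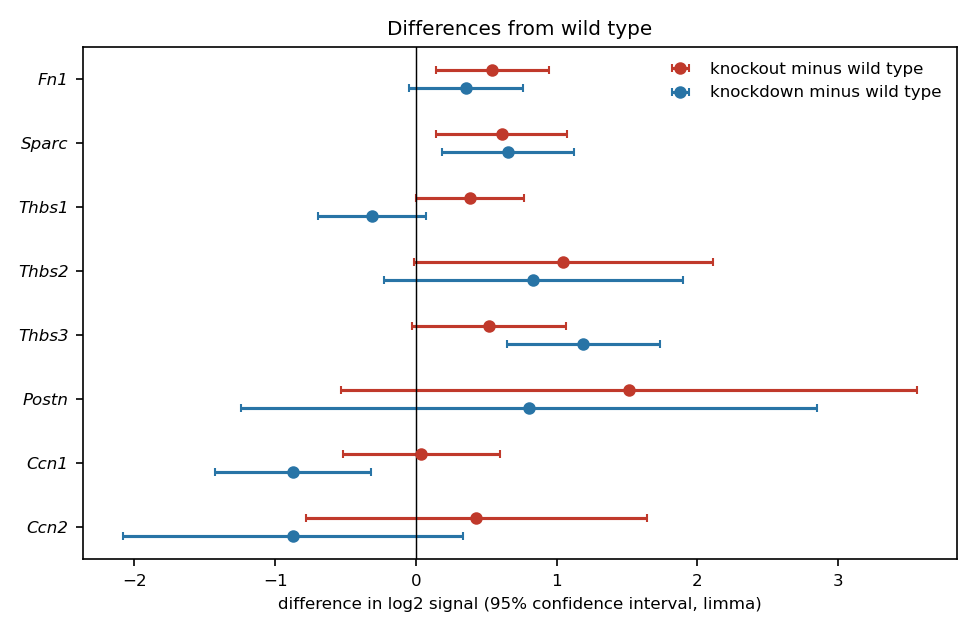
Difference in log2 signal from wild type for each gene, knockout in red and knockdown in blue, with 95% confidence intervals from limma that are not adjusted for the number of genes. The 2 groups lie side by side for Sparc, on opposite sides of 0 for Thbs1, Ccn1 and Ccn2, and the Postn intervals are the widest.

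The 3 thrombospondins differed in pattern. Thrombospondins are oligomeric calcium-binding glycoproteins: the products of Thbs1 and Thbs2 form trimers and restrain blood vessel growth, and that of Thbs1 can activate latent TGF-beta, whereas the product of Thbs3 forms pentamers. Thbs1 (probe set 10474700, gene identifier 21825) stood at 12.14, 12.26 and 12.57 in wild type, at 12.84 and 12.58 in knockout and at 12.12 and 11.91 in knockdown. Knockout arrays were above all wild-type arrays and knockdown arrays below them, with gaps as small as that between wild-type array 3 and knockout array 2. The log2 difference was 0.39 ± 0.157 SE in knockout (limma adjusted p = 0.387) and -0.31 ± 0.157 SE in knockdown (limma adjusted p = 0.448). Knockout was 1.62-fold above knockdown (log2 0.70 ± 0.172 SE, unadjusted p = 0.00664, limma adjusted p = 0.143). Averaged over both deficient groups, Thbs1 differed from wild type by 0.04, a value that turned negative without wild-type array 1, knockout array 1 or knockdown array 1 (-0.05 to -0.01).

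Thbs2 (probe set 10447951, gene identifier 21826) stood at 10.01, 10.22 and 10.74 in wild type, at 10.89 and 11.86 in knockout and at 11.71 and 10.61 in knockdown. In each deficient group 1 clone was high and the other close to wild-type array 3, and knockdown overlapped wild type. Its SD within groups was 0.581, at the 97.5th percentile of all genes tested. The log2 difference was 1.05 ± 0.435 SE in knockout (2.07-fold, limma adjusted p = 0.394) and 0.84 ± 0.435 SE in knockdown (1.78-fold, limma adjusted p = 0.458). Without knockout array 2 the knockout value was 0.57 (unadjusted p = 0.322, limma). The knockdown value was 0.29 without knockdown array 1 and 1.38 without knockdown array 2 (unadjusted p = 0.0354 for the latter, limma). The tested genes nearest to it in pattern, by the root-mean-square difference of mean-centred log2 signals over the 7 arrays, were the chemokine gene Ccl9 (0.223) and the glycosyltransferase gene Gcnt2 (0.256).

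Thbs3 (probe set 10493449, gene identifier 21827) stood at 7.40, 7.78 and 7.06 in wild type, at 7.9998 and 7.87 in knockout and at 8.42 and 8.79 in knockdown. The 3 groups did not overlap, with wild type lowest and knockdown highest. Knockdown was 2.28-fold above wild type (log2 1.19 ± 0.223 SE, unadjusted p = 0.00171, limma adjusted p = 0.162). Leaving out any array kept this log2 difference within 1.005 to 1.378. The knockout difference was 0.52 ± 0.223 SE (1.43-fold, limma adjusted p = 0.407). Knockdown exceeded knockout by 1.59-fold (knockout minus knockdown, log2 -0.67 ± 0.245 SE, unadjusted p = 0.0332, limma adjusted p = 0.244). Nearest in pattern were the salt-inducible kinase gene Sik1 (root-mean-square difference 0.177) and the Wnt receptor gene Fzd8 (0.214). They differed by 1.08 and 1.01 on the log2 scale in knockdown (limma adjusted p = 0.11 for both). Their direction follows from being picked for a pattern like that of Thbs3 and is no separate result.

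Postn encodes periostin, a fasciclin-domain protein that binds collagen, fibronectin and tenascin-C and helps to anchor tenascin-C in the matrix (probe set 10492021, gene identifier 50706). Its log2 signal was 8.91, 11.75 and 11.26 in wild type, 12.43 and 11.89 in knockout and 11.03 and 11.86 in knockdown. Wild-type array 1 stood 2.12 below the next lowest array, a 4.35-fold gap, and the other 6 arrays lay between 11.03 and 12.43. The SD within groups was 1.13, at the 99.6th percentile of genes tested. The log2 difference was 1.52 ± 0.838 SE in knockout (limma adjusted p = 0.503) and 0.81 ± 0.838 SE in knockdown (limma adjusted p = 0.71). Without wild-type array 1 these became 0.65 and -0.06, so the size in knockout and the direction in knockdown rested on that clone. Without knockdown array 2 the knockdown value was 0.39.

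Only 4 of the 16801 genes tested lay at least as far below the other wild-type arrays there as Postn did: Postn, the proteoglycan gene Lum, Mexis and Tmem47, the last 3 chosen after their values were seen. Lum encodes lumican, a small leucine-rich proteoglycan that regulates collagen fibrils, and stood at 5.06, 9.26 and 9.13 in wild type. Of the 14 fibroblast markers, 9 were lowest on array 1 within wild type, where 42.9% of all genes tested were lowest, and Col1a1 and Col3a1 were nearly level there with wild-type array 3. The mean log2 signal of the 14 markers was 9.64 on that array, against 10.36 and 10.12 on wild-type arrays 2 and 3, 9.96 and 10.09 in knockout and 10.43 and 10.25 in knockdown. Lum is among the 14 markers, so its low values there, in knockout (5.76 and 4.17) and in knockdown (6.95 and 5.85) enter these means. Fn1, Sparc, Thbs2 and Postn were each lowest of all 7 arrays on wild-type array 1. The part of this clone's marker levels in the differences above was not tested. The genes nearest to Postn in pattern were Socs2, a suppressor of cytokine signalling (root-mean-square difference 0.278), at 6.09, 8.16 and 7.78 in wild type, and the transmembrane protein gene Plxdc2 (0.449).

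**Figure D3:**
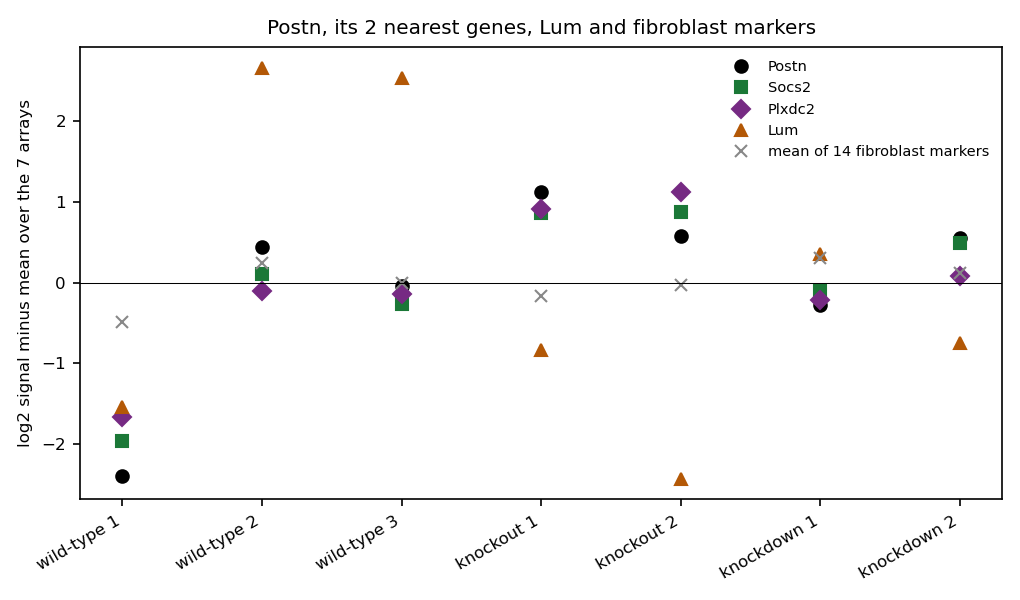
Log2 signal minus its mean over the 7 arrays for Postn, its 2 nearest genes Socs2 and Plxdc2, the matrix gene Lum and the mean of 14 fibroblast markers. All 5 are lowest within wild type on array 1. For Socs2 and Plxdc2, picked for their pattern, and Lum, picked for its gap there, the choice itself set this. Lum is also among the 14 markers. Unlike Postn, Lum is also low on the knockout arrays (5.76 and 4.17). On the knockdown arrays Lum is at 6.95 and 5.85, against 9.26 and 9.13 on wild-type arrays 2 and 3.

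Ccn1 and Ccn2, long known as Cyr61 and Ctgf, encode secreted proteins that bind integrins and heparan sulfate. Both are standard targets of YAP and TAZ, coactivators that respond to cell spreading and actin tension, and of their partner TEAD transcription factors. Both are also targets of TGF-beta and serum response factor. Ccn1 (probe set 10502655, gene identifier 16007) stood at 11.14, 11.00 and 11.35 in wild type, at 11.42 and 10.99 in knockout and at 9.98 and 10.60 in knockdown. Both knockdown arrays were below all others, and knockout overlapped wild type. The knockdown value was 1.83-fold below wild type (log2 -0.87 ± 0.228 SE, unadjusted p = 0.00851, limma adjusted p = 0.203). In knockout the log2 difference was 0.04 (95% interval -0.52 to 0.60, limma adjusted p = 0.956), with no settled sign. Knockout exceeded knockdown by 0.91 ± 0.25 SE on the log2 scale (limma adjusted p = 0.167).

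Ccn2 (probe set 10362201, gene identifier 14219) stood at 10.49, 10.82 and 10.43 in wild type, at 11.53 and 10.49 in knockout and at 8.95 and 10.46 in knockdown. In each deficient group array 1 stood apart, upward in knockout and downward in knockdown, while both arrays 2 lay within the wild-type range. The knockdown arrays differed from each other by 1.51 on the log2 scale, 2.84-fold, a gap reached by 0.5% of genes tested. The knockdown difference from wild type was -0.87 ± 0.496 SE (limma adjusted p = 0.492) and ranged from -0.12 without knockdown array 1 to -1.63 without knockdown array 2 (unadjusted p = 0.015 for the latter, limma). The knockout difference was 0.43 ± 0.496 SE (limma adjusted p = 0.734), turned to -0.09 without knockout array 1 and was 0.95 without knockout array 2. Without both arrays 2, neither Ccn2 difference passed (unadjusted p = 0.0204 and adjusted p = 0.245 in knockout, 0.0047 and 0.241 in knockdown, limma). The nearest patterns were those of Ece1, which encodes endothelin-converting enzyme (root-mean-square difference 0.257), and Tmem38b, an intracellular cation channel gene (0.305).

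Because Ccn1 was lower in knockdown whereas Sparc and Thbs3 were higher, the upstream sequence of these 3 genes is shown, the 250 bases before the RefSeq start site in build GRCm38.p6, 5′ to 3′ on the strand of the gene. Capitals mark matches, on either strand, to the TEAD motif GGAATG, the AP-1 motif TGANTCA, the CArG box bound by serum response factor, the Sp1 motif GGGCGG and the TATA box TATAAA. The Ccn1 stretch lies at chr3:145649986-145650235 on the minus strand, the Sparc stretch at chr11:55420081-55420330 on the minus strand and the Thbs3 stretch at chr3:89214930-89215179 on the plus strand.
Ccn1: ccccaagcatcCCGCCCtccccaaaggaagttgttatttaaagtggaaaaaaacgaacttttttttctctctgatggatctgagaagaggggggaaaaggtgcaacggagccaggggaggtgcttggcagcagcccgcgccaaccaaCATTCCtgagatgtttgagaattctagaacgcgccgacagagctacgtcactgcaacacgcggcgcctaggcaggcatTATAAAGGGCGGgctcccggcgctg
Sparc: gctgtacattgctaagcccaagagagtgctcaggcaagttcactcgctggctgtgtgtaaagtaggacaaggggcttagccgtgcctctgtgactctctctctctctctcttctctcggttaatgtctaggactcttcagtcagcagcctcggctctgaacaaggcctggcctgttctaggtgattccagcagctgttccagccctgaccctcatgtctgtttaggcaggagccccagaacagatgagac
Thbs3: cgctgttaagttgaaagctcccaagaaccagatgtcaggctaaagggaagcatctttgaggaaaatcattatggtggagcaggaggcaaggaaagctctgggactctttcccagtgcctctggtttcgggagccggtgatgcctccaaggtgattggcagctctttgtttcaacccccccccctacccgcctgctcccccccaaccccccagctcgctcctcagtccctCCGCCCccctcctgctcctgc
The Ccn1 stretch holds the TEAD letters on the reverse strand at positions -103 to -98 from the start, a TATA box at -25 to -20 and, directly after it without overlap, an Sp1 motif at -19 to -14, with a second Sp1 match on the reverse strand at -239 to -234. A TEAD match is present in 12.6% of 32851 mouse promoter windows of this length, a TATA box in 12.4% and an Sp1 motif in 32.7%. The Thbs3 stretch holds the Sp1 letters on the reverse strand at -21 to -16. No searched motif is spelled in the Sparc stretch, and the AP-1 letters and the CArG box, present in 6.75% and 1.47% of windows, are in none of the 3. Such matches describe letters and do not show binding. Of the other promoter windows found, 1 of the 2 of Postn holds a TATA box match at -26 to -21. That of Thbs2 holds these letters on the reverse strand, at -126 to -121.

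Other genes of the YAP and TEAD pathway were read beside Ccn1 and Ccn2. Of 27 such genes, without Ccn1 and Ccn2, 20 were lower and 7 higher in knockdown (median log2 difference -0.17, against 0.03 over all genes). In knockout 19 were higher and 8 lower (median 0.13, against -0.03). Of all genes, 56.8% were higher in knockdown and 42.6% in knockout. The knockdown median was -0.08 without knockdown array 2, and the knockout median was 0.08 without wild-type array 1 or without knockout array 2. Limma called 0 of them in either comparison. At an unadjusted p under 0.05, 5 were lower in knockdown (6.99% of all genes), and 6 higher (7.33%) and 1 lower (5.5%) in knockout. Between knockout and knockdown 25 of 27 were higher in knockout (40% of all genes, and median 0.30 against -0.05). Of these, 0 were called and 9 had an unadjusted p under 0.05 (9.05% of all genes). Ankrd1, a stretch-induced ankyrin repeat protein gene, stood at 9.48, 9.73 and 10.12 in wild type, at 9.85 and 9.03 in knockout and at 7.51 and 7.40 in knockdown. It was thus lower on both knockdown arrays than anywhere else, with a log2 difference from wild type of -2.32 ± 0.283 SE (limma adjusted p = 0.1). Crim1, a transmembrane regulator of BMP signalling, was the gene nearest to Ccn1 in pattern of all genes tested (root-mean-square difference 0.157). Its difference of -0.69 in knockdown (limma adjusted p = 0.147) follows from that nearness and is no separate result beside Ccn1. The next nearest was the chromatin regulator gene Sinhcaf (0.169). Yap1 itself differed by -0.28 in knockdown (limma adjusted p = 0.266). In knockout, the kinase gene Lats2, which restrains YAP, differed by 0.39, the TAZ gene Wwtr1 by 0.54 and Asap1 by 0.70 (limma adjusted p = 0.159, 0.16 and 0.182).

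**Figure D4:**
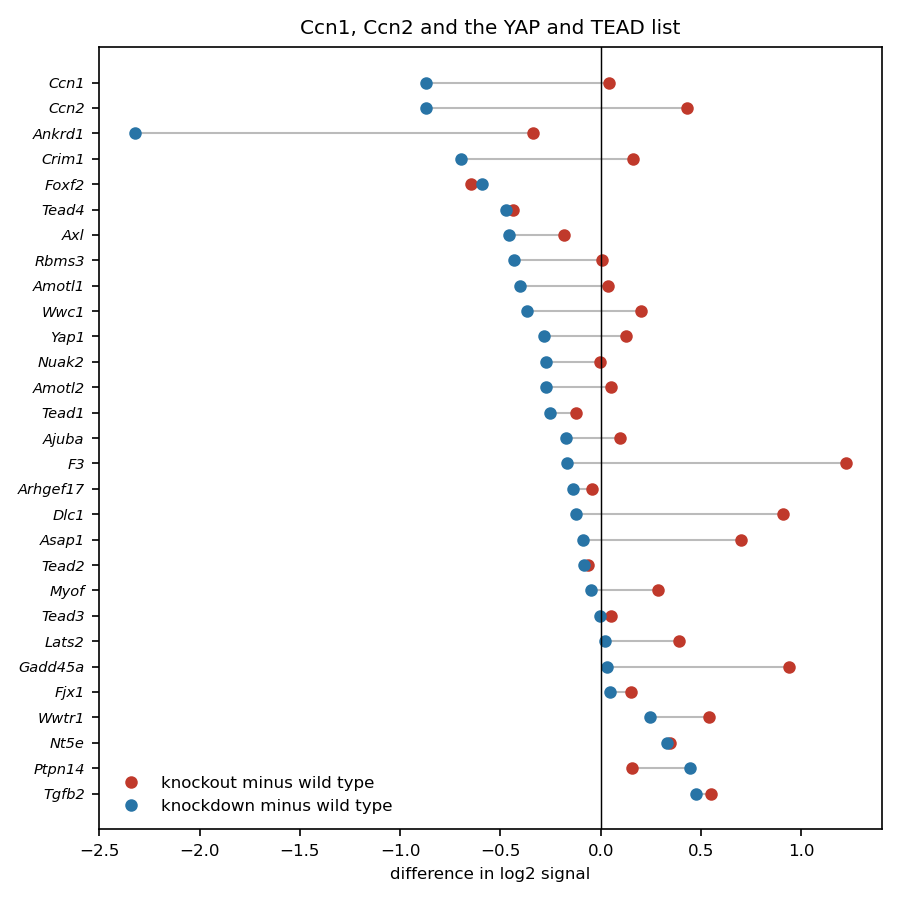
Difference in log2 signal from wild type for Ccn1, Ccn2 and the 27 genes of the YAP and TEAD list, knockout in red and knockdown in blue, joined by a line for each gene. For 25 of the 27 list genes the knockout point lies to the right of the knockdown point, and Ankrd1 has the longest gap (1.99).

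Genes driven by serum response factor and early response genes ran in a like direction. Of 16 tested, 14 were lower in knockdown (median -0.20), where 56.8% of all genes were higher (median 0.03). In knockout 11 were higher (median 0.13), against 42.6% of all genes (median -0.03). Limma called 0 in either. At an unadjusted p under 0.05, 3 were lower in knockdown (6.99% of all genes), and 2 were higher (7.33%) and 1 lower (5.5%) in knockout. Between knockout and knockdown 1 of 16 was called (0.375% of all genes): Tpm2, which encodes a tropomyosin of actin filaments. Tpm2 stood at 8.65, 9.16 and 8.84 in wild type, 9.49 and 9.58 in knockout and 7.86 and 8.16 in knockdown. Its knockout level was 1.53 ± 0.185 SE above knockdown on the log2 scale (limma adjusted p = 0.0488), a call that leaving out any single array ended and that held in 4 of 16 alternatives. The early response gene Ier2 differed by -0.62 in knockdown (limma adjusted p = 0.129), the calponin gene Cnn2 by -0.35 (0.223), and Egr1 by -0.69 in knockout (limma adjusted p = 0.183). Vcl, the vinculin gene of focal adhesions, differed by 0.69 in knockout (limma adjusted p = 0.202).

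Receptors that bind the proteins of this group were higher in knockout for 12 of 19 genes (42.6% of all genes, and median 0.21 against -0.03). In knockdown 11 of 19 were higher (median 0.03), close to the 56.8% and 0.03 of all genes. Limma called 0 in either. At an unadjusted p under 0.05, 6 were higher (7.33% of all genes) and 1 lower (5.5%) in knockout, and 2 higher in knockdown (7.12%). Itga5, which encodes the alpha chain of the main fibronectin receptor, stood at 8.30, 9.08 and 8.99 in wild type, at 10.35 and 10.41 in knockout and at 8.94 and 8.90 in knockdown. Knockout arrays were above all others, by 1.59 ± 0.234 SE on the log2 scale against wild type (limma adjusted p = 0.0784), and knockdown lay within the wild-type range. Itgb5, an integrin chain that binds vitronectin with the alpha-v chain, differed by 1.12 in knockout (limma adjusted p = 0.0798), and the syndecan gene Sdc2 by 0.87 (0.182). Cd47, a receptor for thrombospondin-1, differed by 0.64 in knockout and 0.40 in knockdown (limma adjusted p = 0.197 and 0.347). Itga9, whose product binds tenascin-C and osteopontin, differed by 0.59 in knockdown (limma adjusted p = 0.236). The receptor list median in knockout was 0.02 without knockout array 2.

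Genes of fibronectin fibril assembly and its link to actin were higher for 12 of 16 in knockout (median 0.21, and 0.10 without wild-type array 1). In knockdown 11 of 16 were higher (median 0.10, and -0.09 without wild-type array 1). Of all genes, 42.6% were higher in knockout (median -0.03) and 56.8% in knockdown (median 0.03). Limma called 0 of the 16. At an unadjusted p under 0.05, 5 were higher in knockout (7.33% of all genes), and 2 higher (7.12%) and 2 lower (6.99%) in knockdown. Itga5, Itgb1, Sdc2 and Sdc4 are also in the receptor list and Vcl in that of serum response factor, so these counts are not separate. Tns1, the gene of tensin, which sits at the fibrillar adhesions where fibronectin is stretched into fibrils, differed by 1.28 ± 0.173 SE in knockout (limma adjusted p = 0.0686) and 0.15 in knockdown. Plaur, the urokinase receptor gene, differed by -0.84 in knockdown (limma adjusted p = 0.0928), and the integrin activator gene Tln1 by -0.45 (0.162), whereas the tensin gene Tns3 differed by 0.23 (0.295). Between knockout and knockdown Plaur differed by 0.71 (limma adjusted p = 0.0543).

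Other matricellular and adhesive glycoproteins showed no common direction in knockout, where 11 of 23 were higher (42.6% of all genes, and median -0.01 against -0.03). In knockdown 17 of 23 were higher (56.8% of all genes, and median 0.11 against 0.03). None was called by limma, 0 in either comparison. At an unadjusted p under 0.05, 2 were higher (7.33% of all genes) and 1 lower (5.5%) in knockout, and 1 higher in knockdown (7.12%). Ccn4, a CCN gene like Ccn1 and Ccn2, was at 8.02, 8.62 and 8.22 in wild type, at 9.98 and 9.43 in knockout and at 8.49 and 8.74 in knockdown. Its knockout arrays were above all others, by 1.42 ± 0.234 SE against wild type (limma adjusted p = 0.097), whereas Ccn1 overlapped wild type there. Edil3, which encodes an integrin-binding protein of the matrix, differed by -1.66 in knockout (limma adjusted p = 0.233), and the insulin-like growth factor binding protein gene Igfbp7 by 0.69 (0.338). Emilin1, a gene of elastic fibre assembly, differed by 1.00 in knockdown (limma adjusted p = 0.162) and -0.01 in knockout.

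Genes of the TGF-beta response, which in fibroblasts includes Fn1, Thbs1, Postn and Ccn2, were higher for 15 of 21 in knockout (42.6% of all genes). Their median there was 0.36, and 0.24 without wild-type array 1, against -0.03 over all genes. In knockdown 12 of 21 were higher (median 0.02), close to the 56.8% and 0.03 of all genes. Tgfb2 is also in the YAP and TEAD list and Acta2 in that of serum response factor. Limma called 0 of the 21. At an unadjusted p under 0.05, 7 were higher (7.33% of all genes) and 2 lower (5.5%) in knockout. In knockdown 2 were higher (7.12%) and 1 lower (6.99%). Bhlhe40 differed by 0.78 in knockout (limma adjusted p = 0.118), the collagen gene Col1a1 by 0.69 (0.239) and the receptor gene Tgfbr1 by 0.54 (0.297). Col1a1 differed by 0.52 in knockdown and Ltbp3, a latent TGF-beta binding protein gene, by 0.58 (limma adjusted p = 0.324 and 0.29), whereas Ski, a repressor of TGF-beta signalling, differed by -0.35 (0.32).

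**Figure D5:**
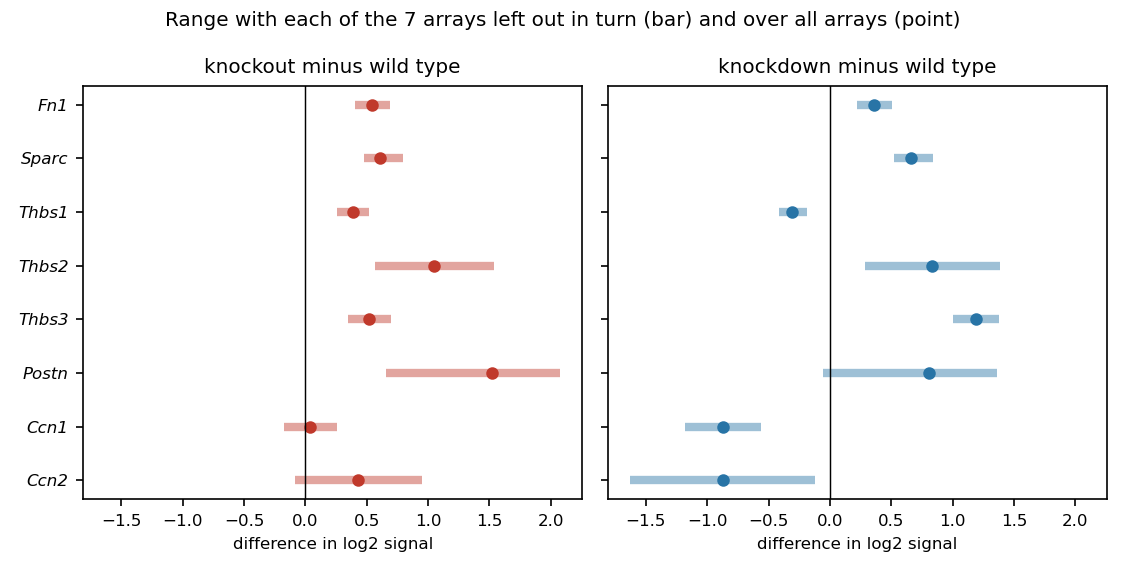
Difference in log2 signal from wild type over all arrays (point) and its range when each of the 7 arrays is left out in turn (bar), for knockout on the left and knockdown on the right. The bars of Fn1, Sparc, Thbs1, Thbs2 and Thbs3 stay on 1 side of 0 in both groups, while those of Ccn1 and Ccn2 in knockout and of Postn in knockdown cross it.

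The spread between clones was wide for the whole group. All 8 genes had an SD within groups above the median of genes tested (0.14), from 0.195 for Thbs1 to 1.13 for Postn. The number of genes with an unadjusted p under 0.05 depended on single arrays. Leaving out a deficient array leaves 1 array in its group and fewer degrees of freedom. Without knockout array 2 the knockout difference was 0.513 for Fn1, 0.515 for Sparc and 0.515 for Thbs1, against 0.543, 0.610 and 0.388 over all arrays. Without knockdown array 1 the knockdown difference was 0.705 for Sparc, 1.378 for Thbs3 and -0.563 for Ccn1, against 0.656, 1.191 and -0.873. Between knockout and knockdown, arrays did not overlap for 5 genes higher in knockout (17.8% of all genes) and 1 lower (27.2%). At an unadjusted p under 0.05, 2 were higher in knockout (9.05%) and 1 was lower (8.87%), and this count of 3 became 1 without knockout array 1. Without knockout and knockdown arrays 2 together, the counts were 1 in knockout, 3 in knockdown and 2 over both.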

How the data were processed

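The authors deposited log2 signal values, 1 column per array, made with R 2.8.0 and the affy package per the submitters' processing notes; how background, summarisation and normalization were done is not stated in these sources. Values from 1.81 to 13.7 fit a log2 scale. All 7 columns were used. Of 34760 probe sets, 21640 carried 1 gene symbol, 1321 several and 11799 none in the platform table; symbols were updated through gene identifiers (21553 matched). A gene with several probe sets was represented by that of highest mean. A gene was tested if 2 or more arrays had it above their own 25th percentile.

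Limma 3.58.1 (R 4.3.3) fitted the 3 group means to the 7 arrays together (lmFit and eBayes, two-sided; 4 residual degrees of freedom, prior 2.06), with Benjamini-Hochberg adjustment over all genes tested and a threshold of 0.05. The deficient comparison sets the mean of both deficient groups against wild type. The fit was tested on simulated data. The members and gene lists were chosen with earlier results of these data known. Named are all members, Tnc, the called or up to 3 top genes of each list, and the 2 nearest patterns of each member spanning at least 1 log2 unit. The number of arrays limits the precision. Alternatives were 2 other filters, quantile normalization, centring, averaged probe sets, pairwise fits, array weights, a replicate block and arrays left out. Promoter sequences are from RefSeq (GRCm38.p6), found for 5 members.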

Additional observations from a re-analysis of the deposited data

Results flagged for a closer look

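Tpm2, named through the list of serum response factor targets, differed between knockout and knockdown by 1.53 on the log2 scale in limma (adjusted p = 0.0488), higher on both knockout and lower on both knockdown arrays than on any wild-type array. The call held in 4 of 16 alternatives, with adjusted p from 0.0326 to 0.307 over them and a difference from 1.38 to 1.68 with each array left out, and leaving out any of the 7 arrays ended it.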

How the results depend on the processing

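Over 16 alternatives 0 members were called by limma in any comparison, the smallest adjusted p being 0.0856. Of 504 member values 489 kept their direction and 15 reversed, in 7 of 32 differences. With single arrays left out, these ranged in knockout from -0.176 to 0.256 (Ccn1) and -0.087 to 0.948 (Ccn2), in knockdown from -0.057 to 1.361 (Postn), over both deficient groups from -0.052 to 0.162 (Thbs1) and -0.598 to 0.155 (Ccn2), and between knockout and knockdown from -0.141 to 0.049 (Sparc) and -0.335 to 0.762 (Thbs2). Sparc was also at 0.030 with median centring, and Thbs2 at -0.819 without both deficient arrays numbered 2. Causes were not tested. Members with an unadjusted p under 0.05 numbered 5 in knockout with median centring, and without both arrays numbered 2 they numbered 1 in knockout and 2 over both groups. With single arrays left out they ranged from 0 to 3 in knockout, 1 to 4 in knockdown, 2 to 4 over both groups and 1 to 3 between knockout and knockdown.

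Genes called over the whole table depended on the setting. The 28 in knockout were 79 with the stricter filter, 45 with quantile normalization, 71 with median centring, 6 with only the groups compared and 1 without both arrays numbered 2 (3 to 77 with single arrays left out). The 3 in knockdown were 0 with only the groups compared, without both arrays numbered 2 and without any single array. The 5 over both groups were 10 with the stricter filter, 8 with array weights and 0 without both arrays numbered 2 (0 to 5). The 63 between knockout and knockdown were 38 with no filter, 111 with the stricter filter, 100 with quantile normalization, 137 with median centring, 0 with only the groups compared, 18 with array weights and 0 without both arrays numbered 2 (0 to 111). Median centring moved the share of higher calls in knockout from 71.4% to 85.9%.

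Deviations of same-numbered arrays from their group means correlated at -0.074 to 0.199. The 2 arrays of a deficient group mirror each other in such deviations. These correlations therefore cannot tell whether replicate numbers pair the arrays. With the replicate number as a block, calls numbered 2 in knockout, 0 in knockdown, 0 over both groups and 2 between knockout and knockdown.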
